A study of Mus musculus with 6 samples.

Results

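The genes described here are 41 genes of DNA replication and S phase, read in the 23420-gene tables of LSK cells from mouse bone marrow. They were taken by symbol from a list of proteins of origin licensing, origin firing, the replication fork, nucleotide supply, entry into S phase, fork protection and replication-coupled chromatin. All 41 were found, and all 41 passed the filter on low counts that left 12653 genes for testing, with between 299 and 24106 counts per gene and library. LSK cells are marrow cells without lineage markers that carry both Sca-1 and c-Kit, among them the blood stem cells and early progenitors. Each mouse gave 1 library: 3 bcat(ex3)osb mice (called mutant below) and 3 wild-type (WT) mice. In bcat(ex3)osb mice a β-catenin allele that is always active is expressed in osteoblasts, the bone-forming cells, and not in the cells sequenced, so the level of Ctnnb1, the β-catenin gene, does not check the labels here (303 ± 33.5 CPM in mutant and 384 ± 109 CPM in WT LSK cells, SD, n = 3 each). The labels give no driver of the allele, no age and no treatment.

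Before a cell copies its genome, the origin recognition complex (with Orc1), Cdc6 and Cdt1 load the ring of Mcm2 to Mcm7 onto DNA, a step called licensing. At the start of S phase the kinase Cdc7 with its activator Dbf4, and cyclin E with its kinase, turn the loaded ring into a moving helicase by adding Cdc45 and the GINS complex. Polymerase α with primase then starts each strand, the clamp loader RFC places the sliding clamp PCNA, and Fen1 and Lig1 join the lagging-strand pieces. Transcription of most of these genes is driven by E2F factors late in the gap before S phase, so that their transcripts are high in cycling cells. In marrow, most long-term stem cells are quiescent, while multipotent progenitors cycle.

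Promoter sequences are shown because E2F binding is the known link between these genes. RefSeq windows (GRCm38.p6) of 250 bases before and 50 after a transcript start were searched on both strands for the E2F words TTTGGCGC, TTTCCCGC, TTTCGCGC and TTTGCCGC, which can overlap each other on opposite strands. A window was found for 35 of the 41 genes, 41 windows in all, and 15 windows (36.6%) held at least 1 word. Of all 32851 windows of the same length, 2.26% held one. A CCAAT box (CCAAT) was in 51.2% of member windows and 37.4% of all windows, and the cell cycle word TTTGAA in 17.1% and 17.9%. Member windows were richer in G and C (61.4% against 53.8% of bases). By role, 7 of 8 licensing genes with a window held an E2F word, against 1 of 5 firing genes, 3 of 9 fork genes, 0 of 4 nucleotide genes, 2 of 5 chromatin genes, 2 of 2 fork protection genes and 0 of 2 entry genes. Mcm4, Rfc2, Gins1, Gins2, Tipin and Ccne2 had no window. For some genes, among them E2f1 and Orc1, the window lies wholly inside the annotated gene. The E2f1 window spans chr2:154569377-154569676 on the minus strand, and the gene ends at 154569892. The bases before the first annotated position of such genes were not searched, so a count of 0 does not cover them. Below are the bases before the gene's first annotated position for Mcm6 (chr1:128359706-128359955, minus strand) and Mcm5 (chr8:75109259-75109467, plus strand), with the E2F words in capitals. Cdt1 (chr8:122567765-122568014, plus strand) and Cdc7 (chr5:106964072-106964314, plus strand) are shown beside them because their mutant and WT values did not overlap. Neither stretch holds one of these words, and the word of Cdt1 lies 32 bases after the start. Pola1 and E2f1 did not overlap between genotypes either, and their stretches are not shown. The window of Pola1 holds an E2F word at position -138 from its transcript start, and that of E2f1 holds none.
Mcm6: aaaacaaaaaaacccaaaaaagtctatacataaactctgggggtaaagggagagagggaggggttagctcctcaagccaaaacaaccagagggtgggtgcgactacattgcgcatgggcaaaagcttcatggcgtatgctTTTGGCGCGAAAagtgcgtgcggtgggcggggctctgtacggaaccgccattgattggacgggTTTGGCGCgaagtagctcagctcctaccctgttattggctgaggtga
Mcm5: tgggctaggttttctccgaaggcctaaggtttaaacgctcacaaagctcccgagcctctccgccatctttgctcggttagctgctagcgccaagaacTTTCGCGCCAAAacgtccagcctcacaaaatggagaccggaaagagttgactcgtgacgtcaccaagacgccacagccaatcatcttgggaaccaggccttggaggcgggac
Cdt1: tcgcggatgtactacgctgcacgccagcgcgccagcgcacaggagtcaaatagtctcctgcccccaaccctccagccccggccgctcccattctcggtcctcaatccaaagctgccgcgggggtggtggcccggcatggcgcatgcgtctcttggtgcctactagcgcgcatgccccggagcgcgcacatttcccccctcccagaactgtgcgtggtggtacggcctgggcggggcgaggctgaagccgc
Cdc7: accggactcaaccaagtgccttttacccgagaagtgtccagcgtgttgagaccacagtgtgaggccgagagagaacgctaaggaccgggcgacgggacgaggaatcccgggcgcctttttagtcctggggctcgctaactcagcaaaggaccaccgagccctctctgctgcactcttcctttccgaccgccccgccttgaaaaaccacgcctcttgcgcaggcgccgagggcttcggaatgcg

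Library totals were between 15431235 and 19956774 counts, and the 41 genes together took between 0.908% and 1.1% of each. Levels across libraries are given as CPM (counts scaled to a common library size, with TMM scaling) and levels between genes as the deposited FPKM, which also divides by gene length. Xist and Y-linked genes read mutant mice 1 and 2 as male and the other 4 mice as female, so 1 mutant mouse remains for a comparison within females. Since no WT mouse read as male, a term for sex leaves the genotype estimate to this same mouse against the WT mice. The sort marker genes Kit (322.91 to 1001.6 CPM) and Ly6a, which encodes Sca-1, were present in all 6 libraries. Ly6a was at 81.508, 65.933 and 75.68 CPM in the mutants against 148.16, 161.58 and 156.1 CPM in WT. Over 12 LSK identity genes, Kit and Ly6a among them, the median log2 fold change was -0.368, with 10 negative and 2 positive. In that list 2 genes, Ly6a and Procr, were lower at an edgeR unadjusted p under 0.05, beside 3.13% of all genes. Marker lists of other cells differed in their sums. The 12 granulocyte-monocyte markers summed to 6783 to 11870 CPM in mutant and 1493 to 3478 CPM in WT mice. The 12 B cell markers summed to 81.3 to 667 CPM in mutant and 681 to 1184 CPM in WT mice. Of these markers, 0 had an edgeR adjusted p under 0.05, beside 0% of all genes. All 12 granulocyte-monocyte markers had a positive log2 fold change, 11 of them at an edgeR unadjusted p under 0.05, beside 3.43% of all genes. All 12 B cell markers had a negative one, 2 of them at an edgeR unadjusted p under 0.05, beside 3.13% of all genes. The B cell list overlapped by its median over genes, with mutant mouse 1 (-0.462 log2 units against the WT mean) above WT mouse 1 (-0.536). One of the 12 B cell markers was at 0 in mutant mouse 2, and none of either list in any other library. Macrophage markers summed to 20.3 to 74.5 CPM in mutant and 83.1 to 125 CPM in WT mice. Of the 9 that were found, 2 or 3 were at 0 in each mutant library and 1 was at 0 in WT mouse 3. The part of these cells in the values below was not tested. In such bulk libraries, fewer cells of a type and less RNA per cell cannot be told apart.

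As a set, the replication genes were at nearly the same level in mutant and WT LSK cells. The median log2 fold change (mutant over WT) of the 41 was 0.0112, beside 0.0022 over all 12653 genes tested, with 21 positive and 20 negative values between -0.61 and 0.452. The sign of so small a median turned with the scaling: with upper-quartile scaling it was -0.0253, beside -0.037 over all genes. By edgeR's quasi-likelihood test with Benjamini-Hochberg adjustment over all genes, 0 of 41 members passed an adjusted p under 0.05. The share called over all genes by the same test was also 0%, and the smallest adjusted p of a member was 0.701. At an unadjusted p under 0.05, 0 members were higher and 1, Cdc7, was lower, beside 3.43% higher and 3.13% lower (together 6.56%) over all genes. DESeq2 also gave 0 members at an adjusted p under 0.05, where it called 1.34% of all genes (101 higher and 68 lower), and limma-voom gave 0 members beside 0% of all genes. At an unadjusted p under 0.05 each gave the same 1 member, Cdc7, beside 8.53% of all genes with DESeq2 and 7.31% with limma-voom. For 4 members (9.76%) the 3 mutant values and the 3 WT values did not overlap: Cdt1 and E2f1 lay above, and Cdc7 and Pola1 below. Over all genes the share was 14.6%, with 6.89% above and 7.67% below.

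The intervals show how large a difference these 6 mice leave possible. The 95% interval of the log2 fold change lay inside -1 to 1, that is, within a 2-fold change either way, for 37 of 41 members (90.2%), beside 53.1% of all genes. The members are more highly counted than most genes (median 173.7 CPM against 37.5 CPM), and their standard errors (SE) are smaller, with a median of 0.218 against 0.300. Tipin, Dut, Pola1 and Cdc7 were the 4 whose interval reached past a 2-fold change. In 35 members (85.4%) the estimate itself was under 0.25 log2 units in size, as it was for 51.3% of all genes. The lowest interval bound among members was -1.28 (Pola1) and the highest 1.10 (Tipin).

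**Figure D1:**
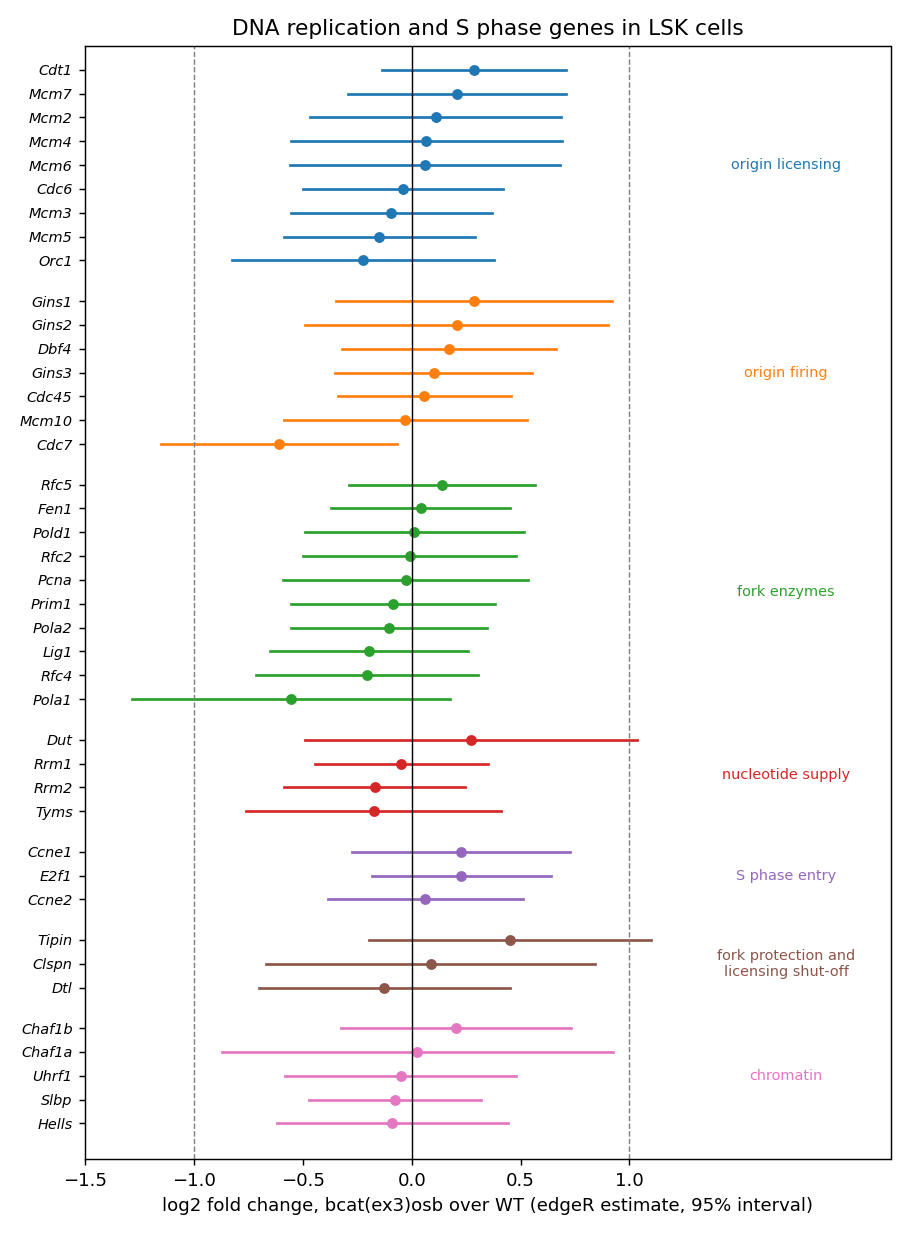
Log2 fold change of each of the 41 genes, mutant over WT, with its 95% interval from the edgeR fit (horizontal axis), grouped by role; dashed lines mark a 2-fold change. Only the interval of Cdc7 leaves out 0, and 37 of the 41 intervals stay between the dashed lines.

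Per kilobase, the order of transcript levels spans the roles. Mcm6 had the highest mean over the 6 libraries, 345.1 FPKM, followed by the clamp loader subunit Rfc2 with 299.8 FPKM, Mcm7 with 247.6 FPKM and the clamp Pcna with 230.2 FPKM. At the low end stood Orc1 with 8.317 FPKM, the cyclin E gene Ccne2 with 10.03 FPKM and the checkpoint mediator Clspn with 10.19 FPKM. Mcm6 lay above 98.4% of the tested genes and Orc1 above 41.2%. The spread of the mice did not separate the top of this order: Mcm6 ran from 216.03 to 425.47 FPKM and Rfc2 from 265.16 to 374.86 FPKM.

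The licensing genes were led by the 6 subunits of the helicase ring, and in 5 of them, all but Mcm5, WT mouse 2 was the lowest of all 6 mice. Mcm6 was at 1157.2, 845.77 and 1046.8 CPM in the mutants (mice 1, 2 and 3, in that order here and below) against 1169.1, 628.84 and 1125.8 CPM in the 3 WT mice. WT mouse 2 was the lowest of the 6, and the groups overlapped. The log2 fold change of Mcm6 was 0.06 ± 0.27 (SE). Mcm2 had 638.82, 534.62 and 588.64 CPM in the mutant and 636.04, 360.36 and 636.49 CPM in the WT mice, again with WT mouse 2 lowest. Mcm4 had 398.87, 267.6 and 382.23 CPM in the mutant and 386.96, 225.11 and 389.29 CPM in the WT mice. WT mice 1 and 3 and mutant mouse 1 were close to each other in all 3 of these subunits.

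Mcm7 had 612.76, 671.52 and 624.12 CPM in the mutant mice, a narrow range, and 630.36, 401.59 and 620.34 CPM in the WT mice. Mcm7 exons overlap those of Ap4m1 and Cops6 on the other strand, and the strand setting of the counting is not given, so its value is less certain. Mcm3 had 706.54, 552.3 and 597.57 CPM in the mutant and 715.86, 540.48 and 723.86 CPM in the WT mice. Mcm5, the subunit that forms the gate of the ring with Mcm2, had 581.7, 442.11 and 544.62 CPM against 589.92, 515.31 and 632.75 CPM. The 6 log2 fold changes ran from -0.15 (Mcm5) to 0.21 (Mcm7), and the direction of Mcm2, Mcm4 and Mcm6 turned when WT mouse 2 was left out (-0.116, -0.152 and -0.175). Summed over the 6 subunits, the mutant mice had 1362, 1015 and 1300 FPKM and the WT mice 1460, 888.8 and 1422 FPKM, so that the lowest library of each genotype was mouse 2.

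The loaders of the ring were less abundant. Cdt1, which brings the ring to the origin and is destroyed once S phase begins, had 169.26, 207.09 and 170.43 CPM in the 3 mutants against 133.03, 152.81 and 163 CPM in WT mice. The lowest mutant value was above the highest WT value. The log2 fold change was 0.28 ± 0.18 (SE), with an edgeR adjusted p of 0.86. Without mutant mouse 2 it was 0.18. With the length trend described below removed it was 0.355, with an unadjusted p of 0.0475 and an edgeR adjusted p of 0.435. In that fit 2 members, Cdt1 and Cdc7, were under an unadjusted p of 0.05, beside 11.4% of all genes. Cdc6, the ATPase that loads the ring with Orc1, had a mean of 124 ± 24.4 CPM (SD, n = 3) in the mutants and 127 ± 3.17 CPM (SD, n = 3) in WT. Orc1 averaged 22.9 ± 6.49 and 26.8 ± 2.97 CPM.

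**Figure D2:**
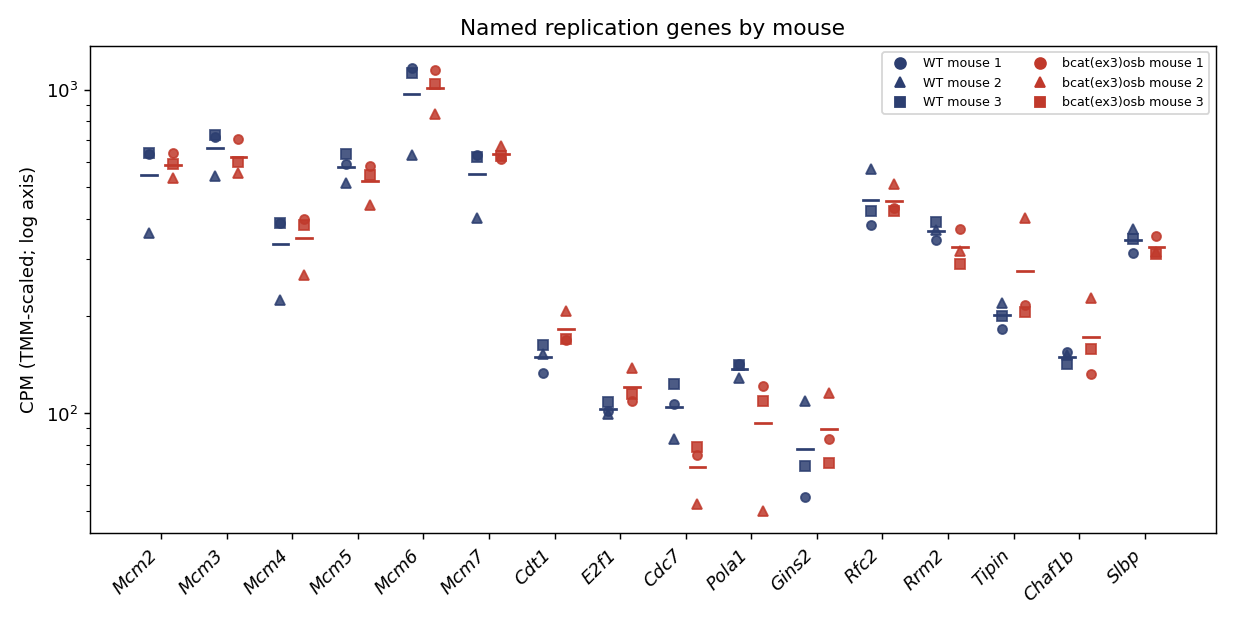
CPM of 16 replication genes in each mouse (log axis), with WT in blue and mutant in red, a symbol for each mouse number and a bar at each group mean. The groups separate for Cdt1, E2f1, Cdc7 and Pola1, while for Mcm2, Mcm3, Mcm4, Mcm6 and Mcm7 the WT mouse 2 triangle lies below the other 5 mice.

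Among the firing genes, the kinase gene Cdc7 had the smallest unadjusted p of the 41. Cdc7 (GRCm38.p6, chromosome 5, 106964315 to 106984440) was at 74.24, 52.32 and 78.951 CPM in the 3 mutants against 107.03, 83.686 and 123.07 CPM in the 3 WT mice. The highest mutant value lay below the lowest WT value. Its log2 fold change was -0.61 ± 0.24 (SE), with a 95% interval from -1.15 to -0.07, an unadjusted p of 0.0318 and an edgeR adjusted p of 0.701. Leaving out mutant mouse 2 gave -0.45, WT mouse 3 -0.48 and WT mouse 1 -0.60, each with an edgeR unadjusted p above 0.05. Leaving out mutant mouse 1 gave -0.68, mutant mouse 3 -0.72 and WT mouse 2 -0.75, each with an edgeR unadjusted p under 0.05. With a term for sex the value was -0.41 and in the 4 females it was -0.42, each resting on mutant mouse 3 as the only female mutant. The mice numbered 2 were the lowest of their genotype in this gene. Left out together, they gave -0.60 with an edgeR unadjusted p of 0.00349 and an adjusted p of 0.244. In that fit 11.2% of all genes had an unadjusted p under 0.05. Its deposited gene length is 3241 bases, and with the length trend described below removed the log2 fold change was -0.50. The edgeR unadjusted p was then 0.00979 (11.4% of all genes under 0.05) and the adjusted p 0.296.

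Dbf4, the activating subunit of the same kinase, was at 70.31, 69.546 and 49.4 CPM in the mutant and 49.079, 56.961 and 62.117 CPM in the WT mice, so the groups overlapped. The ratio of Cdc7 to Dbf4 per base of transcript was 0.796, 0.567 and 1.205 in the mutants against 1.645, 1.108 and 1.494 in WT. In an exact two-sided permutation test over mice the difference of this ratio had p = 0.2 (adjusted p = 0.8 over 7 ratios of partner genes), where 0.1 is the smallest p that 3 mice against 3 can give. The ratio was computed after the values of both genes were seen. Mcm10, a scaffold of the new helicase, Cdc45, and the GINS genes Gins1, Gins2 and Gins3 had log2 fold changes from -0.03 to 0.29. Gins2 had the widest spread of the GINS genes: 83.5, 115.29 and 70.357 CPM in the mutants against 55.19, 109.3 and 68.732 CPM in WT, with the 2 highest values in the mice numbered 2. Cdc45 was among the steadiest members, between 78.1 and 95.5 CPM over all 6 libraries. Exons of Cdc45 and Gins2 overlap those of Ufd1 and Gse1 on the other strand.

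At the fork, the catalytic subunit of polymerase α had the lowest log2 fold change. Pola1, an X-linked gene (chromosome X, 93304766 to 93632387), was at 121.35, 49.869 and 109 CPM in the 3 mutants against 141.95, 128.55 and 141.31 CPM in WT mice. The 3 mutant values lay below the 3 WT values, with mutant mouse 2 far below the other 5. Its log2 fold change was -0.56 ± 0.32 (SE), with an edgeR adjusted p of 0.829. Without mutant mouse 2 the value was -0.25, and without both mice numbered 2 it was -0.31. In the 4 female mice alone it was -0.35, and with sex as a covariate, which again rests on mutant mouse 3, it was -0.33. The deposited gene length of Pola1 is 5347 bases. With the length trend described below removed, its log2 fold change was -0.45 (edgeR unadjusted p 0.0533, adjusted p 0.447). The deviation of mutant mouse 2 from the other mutant mice then went from -1.2 to -0.6 log2 units. Pola2, the regulatory subunit of the same polymerase, had a log2 fold change of -0.11 ± 0.20, and the primase gene Prim1 one of -0.09 ± 0.20. The ratio of Pola1 to Prim1 per base was 0.271, 0.0978 and 0.285 in the mutants against 0.347, 0.231 and 0.309 in WT. Its exact permutation p was 0.4 (adjusted p = 0.8), where 0.1 is again the smallest p possible.

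The other fork genes overlapped between genotypes. Rfc2, a subunit of the clamp loader, had 430.53, 513.66 and 422.2 CPM in the mutant and 381.24, 570.97 and 422.07 CPM in the WT mice, with a log2 fold change of -0.01 ± 0.21 (SE) and 0.181 without WT mouse 2. Rfc2, Rfc4, Rfc5, Fen1 and Lig1 each share exon positions with a gene on the other strand. Pcna had a mean of 289 ± 64.7 CPM (SD, n = 3) in the mutants and 295 ± 67.5 CPM (SD, n = 3) in WT, a log2 fold change of -0.03. Its highest value in each genotype was in mouse 2 (362.37 and 368.42 CPM). Pold1, the catalytic subunit of polymerase δ, Fen1, Lig1, Rfc4 and Rfc5 had log2 fold changes from -0.20 to 0.14. Within the mutant mice, Pola1 ranged 2.433-fold and Pcna 1.507-fold.

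The genes of deoxynucleotide supply were at like levels in both genotypes. Rrm2, the subunit of ribonucleotide reductase that is made in S phase, was at 372.65, 316.95 and 289.3 CPM in the 3 mutants against 342.97, 368.36 and 390.21 CPM in WT mice. Mutant mouse 1 lay inside the WT range and the other mutant mice below it, and the log2 fold change was -0.17 ± 0.18 (SE). Rrm1, the large subunit, had a mean of 566 ± 33.9 CPM (SD, n = 3) in the mutants and 585 ± 53.9 CPM (SD, n = 3) in WT. Tyms, which makes thymidylate, averaged 163 ± 28.7 and 184 ± 53.7 CPM. Dut, which removes dUTP, had the wider spread: 265.41, 435.01 and 230.98 CPM in the mutants against 180.8, 363.09 and 227.21 CPM in WT, and in both genotypes mouse 2 was the highest. Its 95% interval ran from -0.49 to 1.04.

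All 3 genes of S phase entry had a positive log2 fold change, and none passed the test. E2f1, the transcription factor for which the E2F family is named, was at 109.5, 138.12 and 114.77 CPM in the 3 mutants against 101.5, 99.681 and 108.47 CPM in WT mice. The lowest mutant value lay just above the highest WT value, and under upper-quartile scaling or in FPKM the groups overlapped. The log2 fold change was 0.23 ± 0.18 (SE), with an edgeR adjusted p of 0.881. Without mutant mouse 2 it was 0.12, and without both mice numbered 2 it was 0.09. Ccne1 and Ccne2, which encode cyclin E, had log2 fold changes of 0.23 ± 0.22 and 0.06 ± 0.19.

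Tipin, which with Timeless holds the fork together, had the largest positive log2 fold change of the 41, 0.45 ± 0.28 (SE), and the value rested on 1 library. It was at 216.85, 401.98 and 206.36 CPM in the 3 mutants against 182.98, 219.72 and 200.65 CPM in WT mice. Without mutant mouse 2 the value was 0.07, and with sex as a covariate, which rests on mutant mouse 3, it was 0.04. Clspn, which relays the fork checkpoint signal, ranged from 29.2 to 73.9 CPM among the WT mice alone, the widest WT range of the 41 (2.53-fold). Dtl, the ubiquitin ligase receptor that targets Cdt1 in S phase, had a mean of 188 ± 33.6 CPM (SD, n = 3) in the mutants and 205 ± 52.4 CPM (SD, n = 3) in WT.

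Of the chromatin genes, Chaf1a and Chaf1b encode partner subunits of the histone chaperone CAF-1, which places histones on new DNA. Chaf1b was at 132.28, 226.89 and 158.12 CPM in the 3 mutants against 155.29, 151.44 and 142.38 CPM in WT mice. Chaf1a was at 184.5, 75.739 and 162.78 CPM in the mutants against 166.93, 81.41 and 166.94 CPM in WT, low in the 2 mice numbered 2. The log2 fold change of Chaf1a was 0.03 ± 0.39 (SE), the largest SE of the 41, and that of Chaf1b was 0.20 ± 0.23. Slbp, which binds the stem-loop of replication-dependent histone transcripts, was steady, with 353.65, 315.47 and 311.42 CPM in the mutants against 313.92, 372.85 and 346.92 CPM in WT. Uhrf1, which brings maintenance methylation to new DNA, and Hells, a remodelling ATPase, had log2 fold changes of -0.05 ± 0.23 and -0.09 ± 0.23. Exons of Chaf1a and Slbp overlap a gene on the other strand.

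The spread within each genotype moved with gene length, downward in the libraries of the mice numbered 2 and upward in the other 4. In WT mouse 2 the members lay a median of 0.365 log2 units away from the mean of the other 2 WT mice, against 0.246 in WT mouse 1 and 0.163 in WT mouse 3. In mutant mouse 2 the median was 0.291, against 0.201 and 0.162 in mutant mice 1 and 3. WT mouse 2 was the lowest WT library for 17 members, of median length 3422 bases, and the highest for another 17, of median length 1730 bases. Mutant mouse 2 was the lowest mutant library for 16 members (3396.5 bases) and the highest for 17 (1956 bases). Across the 41 genes, the deviation had a Pearson correlation with log10 length of -0.472 in WT mouse 2 and -0.644 in mutant mouse 2, given as a description, since the genes share a library. In the other libraries it was 0.569 and 0.505 (mutant mice 1 and 3) and 0.422 and 0.455 (WT mice 1 and 3), where each deviation is taken from a mean that includes mouse 2. Over all 12653 genes the correlations were -0.455 and -0.368. Mouse 2 was the lowest or highest of its genotype for 82.9% of members in WT and 80.5% in mutant mice, beside 84.6% and 83.9% of all genes.

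When each library's trend on gene length over all genes was removed, the median deviation of members was 0.199 in WT mouse 2 and 0.194 in mutant mouse 2, and the correlation with length was 0.117 and 0.0718. The median deviation was 0.141 in mutant mouse 1, 0.19 in WT mouse 1 and 0.134 in WT mouse 3, while in mutant mouse 3 it went from 0.162 to 0.223, the largest of the 6 after removal. The helicase ring in WT mouse 2 kept part of its deviation: the median of Mcm2 to Mcm7 was -0.712 before and -0.48 after. In single subunits the deviation after removal was -0.66 for Mcm6, -0.58 for Mcm7, -0.52 for Mcm2, -0.45 for Mcm4, -0.21 for Mcm3 and 0.07 for Mcm5. In mutant mouse 2 the same median was -0.291 before and 0.0394 after. Clspn and Tyms went the other way in WT mouse 2, with 1.44 and 1.03 after removal, and Dut had 0.94. With the trend removed, 7 of 41 members had no overlap between genotypes, beside 19.7% of all genes. Above were 5 (Cdt1, Mcm7, E2f1, Ccne1 and Tipin; 12.6% of all genes) and below 2 (Cdc7 and Pola1; 7.07% of all genes). The median log2 fold change was then 0.114 for the members and 0.0887 for all genes.

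**Figure D3:**
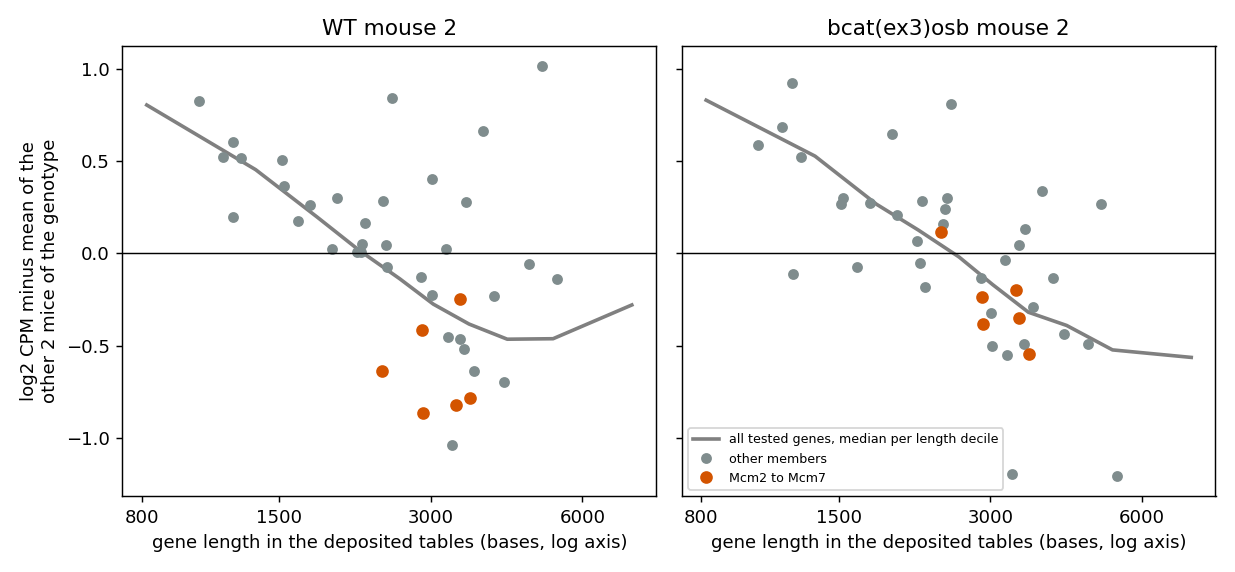
Deviation of each of the 41 genes in WT mouse 2 (left) and mutant mouse 2 (right) from the mean of the other 2 mice of that genotype (vertical axis, log2 CPM) against gene length in bases (log axis), with Mcm2 to Mcm7 in orange and the median of all tested genes per length decile as a grey line. In WT mouse 2 the orange points lie between -0.87 and -0.25, while in mutant mouse 2 they lie around the grey line.

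Other genes of the pathway, which are not among the 41, were counted by lists. Of 38 other replication genes (the remaining origin, polymerase, clamp loader and single-strand binding genes), 0 passed at an adjusted p under 0.05 or at an unadjusted p under 0.05, and their median log2 fold change was 0.0801. The 3 with the smallest p were Pole2 (0.33 ± 0.21, SE), a subunit of polymerase ε, Rpa1 (-0.26 ± 0.17), the large subunit of the single-strand binding protein, and Rnaseh2b (0.45 ± 0.32). Only Rpa1 (2.63% of the list) had no overlap between genotypes, beside 14.6% of all genes. Of 15 other S phase entry genes, 1 was lower at an edgeR unadjusted p under 0.05, beside 3.13% of all genes. It was E2f2, with 46.245, 21.548 and 33.543 CPM in the mutants against 49.564, 51.239 and 67.419 CPM in WT. Its log2 fold change was -0.73 ± 0.30, with an edgeR adjusted p of 0.734, and the groups did not overlap. E2f8, a repressor of the E2F family, had 0.34 ± 0.18, again without overlap, and Rb1, which holds E2F factors in check, had -0.81 ± 0.44 with overlap. In this list 2 genes lay above and 2 below without overlap (26.7%), beside 14.6% of all genes.

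Of 18 other nucleotide supply genes, 0 had an unadjusted p under 0.05, with a median of 0.111. Dck, a salvage kinase, had a log2 fold change of -0.56 ± 0.26 (SE), Rrm2b, the reductase subunit used outside S phase, -0.58 ± 0.28, and Shmt2, a mitochondrial enzyme of folate metabolism, 0.31 ± 0.19. The genotypes did not overlap for 16.7% of this list, Rrm2b and Shmt2 among them, beside 14.6% of all genes. Of 11 other chromatin assembly genes 0 had an unadjusted p under 0.05, with a median of -0.0932, among them Asf1b (-0.40 ± 0.23), Supt16 (0.29 ± 0.24) and Rbbp4 (0.21 ± 0.21). Mitosis genes, which follow S phase in the cycle, had a median of -0.111 over 25 genes, 19 of them negative, with 0 at an unadjusted p under 0.05. Top2a, which untangles sister chromatids, was at 648.72, 296.5 and 369.75 CPM in the mutants against 548.94, 692.96 and 593.01 CPM in WT (log2 fold change -0.48 ± 0.30). Tpx2 and Hmmr, which act on the spindle, had -0.28 ± 0.21 and -0.41 ± 0.33.

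In each mouse except WT mouse 3, the list median of the replication genes lay closer to the WT mean than that of the mitosis genes. Against the WT mean, the median of the 41 members was 0.111, 0.0223 and -0.0397 log2 units in the mutants against -0.112, 0.017 and 0.0548 in WT. For the mitosis list it was 0.199, -0.151 and -0.441 in the mutant and -0.279, 0.25 and 0.0429 in the WT mice. The groups overlapped in both lists. No test of the difference in spread was made.

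**Figure D4:**
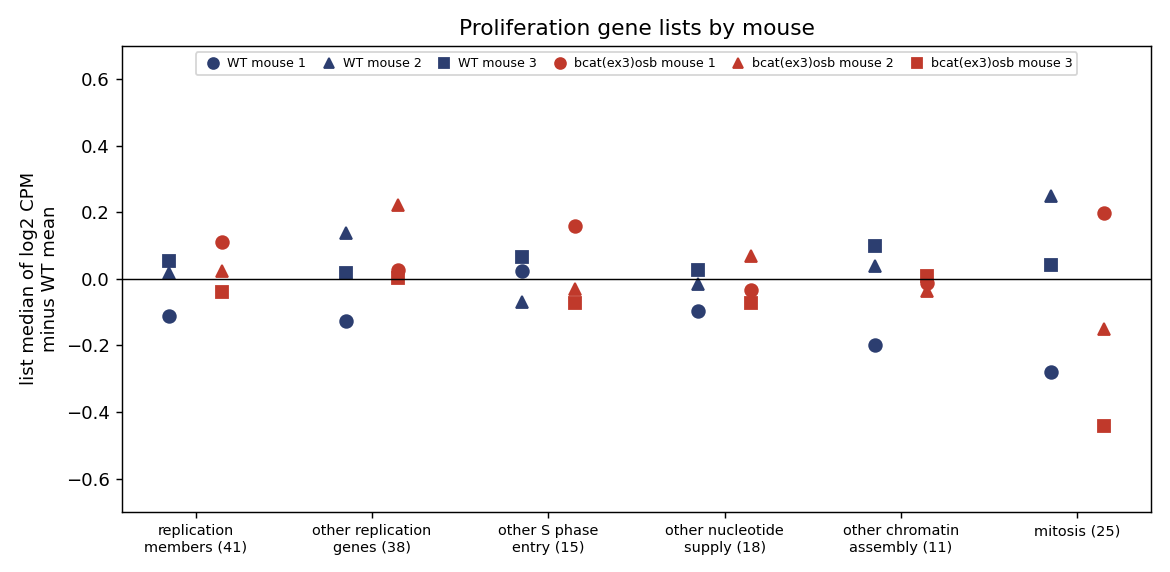
List median of log2 CPM minus the WT mean for 6 gene lists (horizontal axis, number of tested genes in brackets) in each mouse, WT in blue and mutant in red. The replication members lie between -0.112 and 0.111, and the mitosis genes between -0.441 and 0.25.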

How the data were processed

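RNA of LSK cells from 6 mice was sequenced, 1 library per mouse, from stranded total RNA libraries (TruSeq), per the labels' protocols. The submitters' processing notes name featureCounts 1.5.0-p3, the aligner STAR 2.5.2b, bcl2fastq 2.17 and build mm10. They name no annotation, strand setting or rule for multi-mapping reads. Raw counts were deposited by the authors per gene, as were FPKM with the gene length in bases. The deposited FPKM equalled count over length and library total within 0.005.

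Genes were kept by edgeR's filterByExpr (minimum count 10, minimum total 15), scaled by TMM and tested with edgeR 4.0.16 (R 4.3.3), quasi-likelihood, two-sided, genotype as the only term, with Benjamini-Hochberg adjustment over 12653 genes and a threshold of 0.05. SE and 95% intervals came from the F statistic and its degrees of freedom. The labels do not state how cells were pooled or sorted together. The p-values set the genotype difference against the spread between libraries of a genotype. That spread can hold sorting and library handling as well as differences between mice. Log2 CPM used a prior count of 1. The length trend was a loess curve (span 0.5) per library. The fit was tested on simulated data. Coordinates and promoter windows are RefSeq on GRCm38.p6, the assembly of mm10. Exon overlaps are from GENCODE on the same assembly.

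The members and gene lists were chosen with earlier results of these data known. Values per mouse are given for members without overlap, for the smallest p and highest FPKM of each role, for Mcm2 to Mcm7, and for others chosen after their values were seen (Dbf4, Dut, Chaf1a). Alternatives were RLE and upper-quartile scaling, DESeq2 1.42.0, limma-voom (limma 3.58.1), other filters, limma on log2(FPKM + 1) and log2(FPKM + 0.1), the mouse number as a block, sex, female mice only, length, each mouse left out and a threshold of 0.10. Leaving out both mice numbered 2 was added after the data were seen.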

Additional observations from a re-analysis of the deposited data

How the results depend on the processing

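In each of the alternatives run, 0 of the 41 members passed the adjusted threshold of 0.05, and their adjusted p ranged from 0.161 to 1. The number of genes past it over the whole table was 0 in either direction with edgeR, 101 higher and 68 lower with DESeq2, and 1 higher with the length trend removed. Leaving out 1 mouse at a time gave between 0 and 4 higher and between 0 and 13 lower, the largest without mutant mouse 1 (13 lower, 1 higher) and mutant mouse 3 (4 higher, 2 lower). The members' median log2 fold change was 0.0112, 0.114 with the length trend removed, -0.086 in female mice only, and between -0.0445 and 0.0491 with 1 mouse left out. The direction turned for Rfc2 with RLE size factors (0.00518), DESeq2 (0.00521), limma-voom (0.00759) and the length trend removed (0.00605), for Mcm3 with the length trend removed (0.0272), and for Gins2 with sex as a covariate (-0.143) or in female mice (-0.163). Without both mice numbered 2, an alternative chosen after seeing the data, it turned for Mcm2 (-0.0618), Mcm4 (-0.000771), Mcm6 (-0.0682), Mcm7 (-0.026), Rfc2 (0.0767) and Chaf1b (-0.0461). With 1 mouse left out, Mcm2 ran from -0.116 to 0.235, Mcm4 from -0.152 to 0.227, Mcm6 from -0.175 to 0.211, Rfc2 from -0.126 to 0.181, Gins2 from -0.0138 to 0.533 and Chaf1b from -0.0437 to 0.362. None of these values passed the test, and the cause was not tested.

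The mouse numbers are the same in both genotypes, and whether same-numbered mice share more than a number was not tested. Deviations of same-numbered mice 1, 2 and 3 correlated over genes by 0.11, 0.344 and 0.0567. The value of the mice numbered 2 was the highest of any mutant and WT pair. Mutant mouse 3 correlated best with WT mouse 1 (0.279), and mutant mouse 1 with WT mouse 3 (0.131). With the replicate number as a block, 5 genes were higher and 0 lower past the threshold, Rfc2 was at 0.00772, and 2 members, Cdc7 and Pola1, were under an unadjusted p of 0.05 (edgeR adjusted p 0.161 and 0.303), beside 13.5% of all genes in that fit. Each member had at least 299 counts in each library, and 3 mice per genotype limit the precision.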

Other observations

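Transcripts of genes with Hist symbols spread more widely than the replication genes. Replication-dependent histone transcripts are made in S phase and carry no poly(A) tail. The list was taken by symbol, and which of its genes belong to that class was not checked. Over 50 tested genes with Hist symbols, a list chosen after earlier results were known, the median log2 fold change was 1.57, with 44 positive. Of the 50, 12 were higher at an unadjusted p under 0.05 by edgeR, beside 3.43% of all genes, and 0 passed at an adjusted p under 0.05. The list was counted low, with a median of 3.449 CPM against 37.5 CPM over all tested genes. Summed over all Hist symbols, the mutant mice 1, 2 and 3 had 913.9, 1283 and 439.9 CPM and the WT mice 1, 2 and 3 had 330.4, 939.7 and 398.1 CPM. The 41 replication genes summed to 10800, 10070 and 9811 CPM in the mutant and 10350, 9405 and 10720 CPM in the WT mice. The groups overlapped in both sums. Slbp, whose protein binds replication-dependent histone transcripts, had a log2 fold change of -0.08 ± 0.17 (SE). Histone genes are short, with a median length of 479 bases against 2872 for the replication genes, and the mice numbered 2, whose libraries were rich in short genes, had the highest histone sum of each genotype. The part of length in the histone values was not tested.

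Ratios of partner genes per base of transcript were compared for 7 pairs by exact two-sided permutation over mice, with adjusted p = 0.8 for each. Mcm2 to Mcm6 lay between 0.468 and 0.544 in all 6 mice. Chaf1a to Chaf1b ran from 0.193 in mutant mouse 2 to 0.807 in mutant mouse 1.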
